A study of Homo sapiens and Mus musculus with 16 samples.

Results

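The genes that encode collagen chains were followed in cancer cells labelled wild type or knockout for PD-L1, the checkpoint ligand encoded by CD274. Members were taken by symbol alone, as every gene named COL, a number, A and a number, which gave 44 of 58713 genes in the human table and 44 of 53796 in the mouse table, with 43 symbols in both. A member counted as expressed when it reached at least 1 FPKM (fragments scaled to transcript length and library size) in 4 or more of the 8 libraries of its line. By that rule 19 members were expressed in the human line and 12 in the mouse line, of which 11 were expressed in both, 8 in the human line alone and 1 in the mouse line alone. The human cells were MDA-MB-231, grown from a triple-negative breast cancer, and the mouse cells were CT26, grown from a colon carcinoma, and total RNA was sequenced from both. Each line gave 4 libraries from PD-L1 wild type cells and 4 from PD-L1 knockout cells, in which the gene had been targeted with lentivirally delivered CRISPR, so 16 libraries in all. Neither a treatment nor a second genotype is named for any group. The sources used here do not give whether the knockout cells were pooled or cloned, or whether replicate libraries stem from separate cultures. The p-values therefore measure the spread between libraries, and that spread may be technical.

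Collagens are extracellular proteins in which 3 chains wind into a triple helix. Fibrillar collagens bear tension in connective tissue, type IV collagens form the mesh of basement membranes, and other types form beaded filaments, anchoring fibrils, hexagonal networks, fibril-associated bridges or membrane-spanning adhesion proteins. The chains are hydroxylated and folded in the endoplasmic reticulum, trimmed and crosslinked outside the cell, and bound by integrins and discoidin domain receptors. Fibroblasts make most of the fibrillar collagen of a solid tumour, and carcinoma cells add basement membrane and membrane-bound types.

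Depth relative to the first wild type library ranged from 0.94 to 1.21 in the MDA-MB-231 wild type and from 0.511 to 0.779 in its knockout, and from 0.801 to 1.14 and from 0.927 to 2.5 in the CT26 wild type and knockout. RNA of the targeted gene did not separate the MDA-MB-231 groups, with CD274 at 11.2 to 12.8 FPKM in the wild type and 8.19 to 12.5 FPKM in the knockout (log2 fold change -0.20, adjusted p = 0.166, limma). In CT26, Cd274 fell from between 1.23 and 1.5 FPKM to between 0.445 and 0.569 FPKM (-0.66, adjusted p = 1.42e-04). An edited gene can still be transcribed, so the MDA-MB-231 groups rest on their labels. ESR1 and PGR, hormone receptors that triple-negative cancers lack, stayed at or below 0.130 FPKM in every MDA-MB-231 library, while ERBB2 averaged 24.6 FPKM in the wild type and 17.8 FPKM in the knockout. The intestinal markers Cdx1, Cdx2 and Vil1 summed to at most 0.0630 FPKM in the CT26 wild type and at most 1.08 FPKM in its knockout, levels at or near 0 in the wild type and low in the knockout. Of the general epithelial markers in CT26, Epcam was listed at 0 throughout, Cdh1 and Krt8 stayed at or below 0.295 FPKM, and Krt18 averaged 33.7 FPKM in the wild type and 31.6 FPKM in the knockout. Fibroblast markers summed to 5.12 to 7.01 FPKM in the MDA-MB-231 wild type and 2.44 to 5.89 FPKM in its knockout, and to 8.03 to 9.0 and 7.16 to 8.89 FPKM in CT26. Most of those sums was PDGFRB (2.16 and 2.05 FPKM in the MDA-MB-231 wild type and knockout) and ACTA2 (2.82 and 1.13 FPKM, called lower) in MDA-MB-231, and Pdgfrb (6.95 and 5.73 FPKM, called lower) and Pdgfra (1.25 and 2.01 FPKM, not called) in CT26. DCN was listed at or near 0 in both lines, as were Lum, Thy1 and Acta2 in CT26, and LUM averaged 0.917 FPKM in the MDA-MB-231 wild type and was listed at 0 in its knockout. All 4 epithelial markers fell in MDA-MB-231, with log2 fold changes from -1.9 to -0.29, where 25.7% of all genes tested fell. EPCAM was at 27.6 FPKM in the wild type and 12.0 FPKM in the knockout. Endothelial markers summed to no more than 1.32 FPKM in any library. The part of these markers and of depth in the collagen results was not tested, and in bulk RNA fewer cells of a type cannot be told apart from less RNA per cell.

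In MDA-MB-231 the knockout had a different set of abundant collagen transcripts from the wild type. COL5A1, a fibrillar chain and the most abundant member in the wild type, fell to 6.84% of its wild type mean. COL13A1, a membrane-spanning collagen of cell adhesion sites, rose to 521% of its wild type mean and was the most abundant member in the knockout. COL4A5 and COL4A6, neighbouring basement membrane chains on the X chromosome, were nearly or wholly undetected in the knockout. Of the 19 expressed members 5 rose and 13 fell (adjusted p below 0.05 over all 14450 genes tested, limma), where 42.6% of all genes tested rose and 25.7% fell, 68.2% together. By at least 1 on the log2 scale, 2 members rose and 9 fell, beside 11.6% and 9.95% of all genes tested, 21.5% together. The groups did not overlap for the 5 members that rose and the 13 that fell, as held for 39.1% of all genes in the upward and 23.6% in the downward direction, 62.7% together. The median log2 fold change was -0.99 over the expressed members and 0.18 over all genes tested. Of the expressed members 4, COL1A2, COL4A5, COL4A6 and COL6A3, reached 1 FPKM only in wild type libraries. These 4 had to be lower in the knockout to be counted, which makes the counts and the median a description. The median of -0.99 is the value of COL1A2, whose change was -1.80 with 0.1 added and -0.35 with 5 added. After upper-quartile scaling the median over all genes moved to -0.01, and the genes called went from 6149 higher and 3711 lower to 4736 higher and 4851 lower. Changes below are on the deposited scale, 0.18 above that centre.

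**Figure D1:**
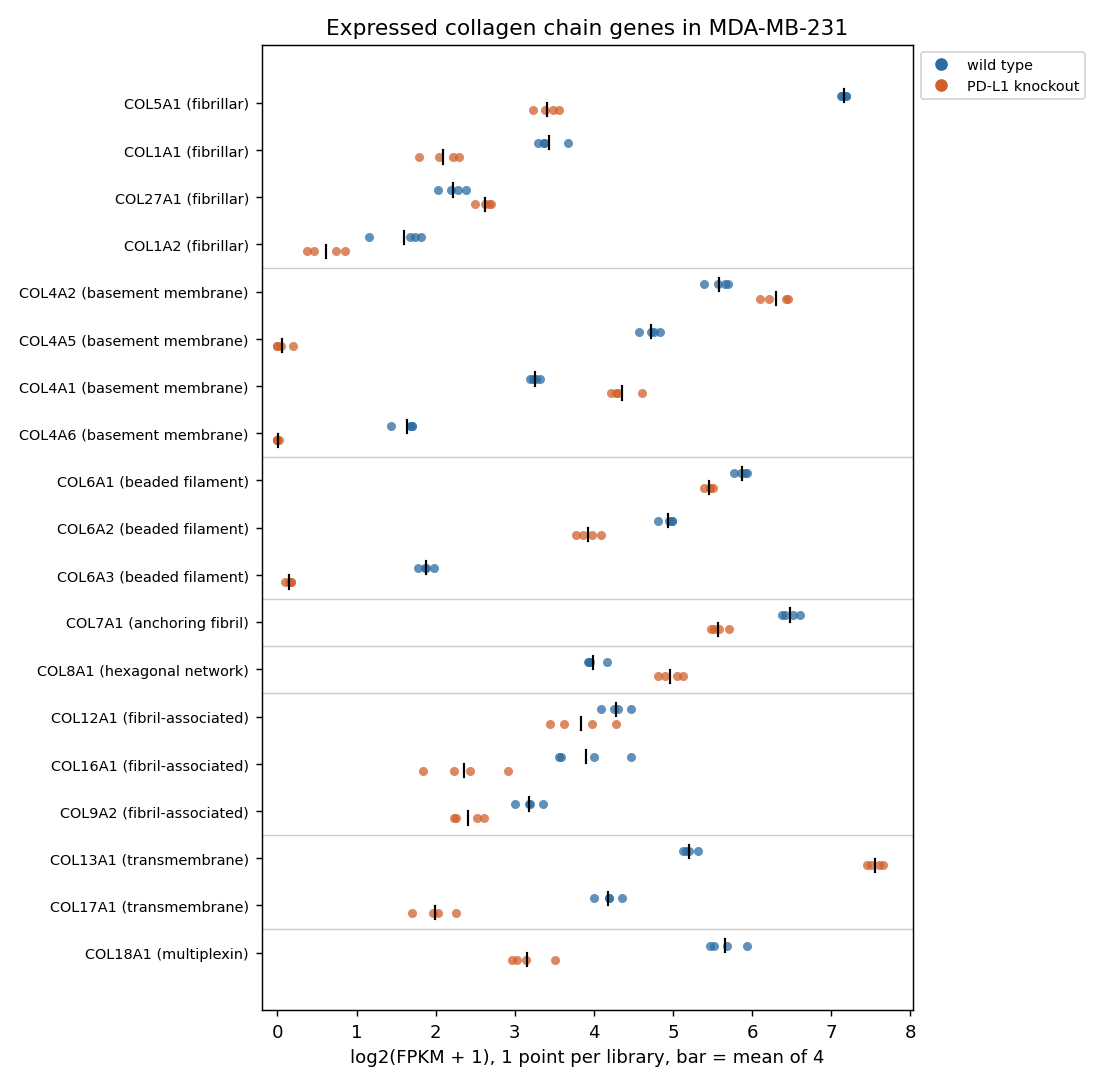
Level of each of the 19 expressed collagen chain genes in MDA-MB-231, as log2(FPKM + 1) on the horizontal axis, with 1 point per library, a bar at the mean of 4, and members grouped by structural class. COL5A1 lies at 138 to 145 FPKM in the wild type and 8.42 to 10.8 FPKM in the knockout, while COL13A1 moves from 34.0 to 38.7 FPKM up to 174 to 201 FPKM.

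The DNA upstream of these genes is shown because on the log2(FPKM + 1) scale COL13A1 rose most and COL4A5 and COL5A1 fell most among expressed members, and COL4A5 shares its upstream DNA with COL4A6. RefSeq promoters on GRCh38.p14 were matched for 32 of the 44 human members, 15 of them expressed. Each stretch is on the plus strand, which all 3 genes are read from, runs 5′ to 3′ and stops before the first annotated exon. Capitals mark matches, on either strand, to CCAAT, to GGGCGG, the GC box, or to TATAAA, the TATA box, none of which overlap each other here. No match to TGACTCA, the AP-1 element, was found in any of them.
COL5A1, chr9:134641553-134641773: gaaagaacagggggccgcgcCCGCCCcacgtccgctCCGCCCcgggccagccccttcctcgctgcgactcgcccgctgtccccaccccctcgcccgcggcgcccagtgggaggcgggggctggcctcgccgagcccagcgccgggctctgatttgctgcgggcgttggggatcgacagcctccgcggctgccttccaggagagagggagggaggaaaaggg
COL13A1, chr10:69801656-69801866: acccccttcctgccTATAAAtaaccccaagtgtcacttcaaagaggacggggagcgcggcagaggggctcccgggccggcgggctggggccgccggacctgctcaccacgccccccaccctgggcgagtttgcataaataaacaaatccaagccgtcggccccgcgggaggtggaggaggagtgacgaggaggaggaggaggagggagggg
COL4A5, chrX:108439588-108439837: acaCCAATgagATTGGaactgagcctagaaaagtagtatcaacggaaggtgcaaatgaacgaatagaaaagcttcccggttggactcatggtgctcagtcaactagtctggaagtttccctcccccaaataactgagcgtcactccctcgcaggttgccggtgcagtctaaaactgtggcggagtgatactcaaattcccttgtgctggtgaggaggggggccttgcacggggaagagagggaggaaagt
The COL5A1 stretch held 2 GC boxes, the COL13A1 stretch 1 TATA box and the COL4A5 stretch 2 CCAAT matches. Over 35116 promoter windows of 250 bases, 42.6% held GGGCGG, 10.7% TATAAA, 32.0% CCAAT and 4.20% TGACTCA. Of the 15 expressed members with a promoter, 11 held GGGCGG in a window, 5 CCAAT, 5 TATAAA and 0 TGACTCA. A member counted if any of its windows held the motif, and COL5A1, COL4A6 and COL18A1 had more than 1 window. The shares are per window, so they are not the same measure. The annotated starts of COL4A6 and COL4A5 lie 380 bases apart on opposite strands, and those of COL4A1 and COL4A2 lie 127 bases apart. A match describes the letters only.

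Of the 11 fibrillar members, 4 were expressed in MDA-MB-231, 1 of which rose and 3 of which fell. Of all genes tested 42.6% rose and 25.7% fell. COL1A2, 1 of the 3 that fell, reached 1 FPKM only in wild type libraries and so had to be lower to be counted. COL5A1, at chromosome 9, 134641774 to 134844843 (hg38), encodes a chain of type V collagen that sets the width of type I fibrils. Its level was 144, 138, 145 and 139 FPKM in the wild type libraries and 10.8, 9.38, 8.42 and 10.1 FPKM in the knockout libraries. The groups lie far apart, with every knockout library far below every wild type library, and the log2 fold change was -3.74 ± 0.0721 (SE, adjusted p = 1.94e-09). COL1A1, the major chain of type I collagen, stood at 9.38, 11.8, 9.30 and 8.80 FPKM in the wild type and 3.11, 3.92, 3.67 and 2.46 FPKM in the knockout. All knockout values lay below all wild type values, and COL1A1 fell by 1.34 on the log2 scale (adjusted p = 2.65e-05). COL1A2, the partner chain of type I collagen, fell from 2.08 ± 0.58 FPKM to 0.539 ± 0.244 FPKM (SD, n = 4), a log2 fold change of -0.99 with adjusted p = 9.57e-04. COL27A1, a fibrillar chain of cartilage, rose from 3.69 ± 0.48 to 5.16 ± 0.361 FPKM (0.40, adjusted p = 0.00686). After upper-quartile scaling the COL27A1 change was 0.22 and was no longer called (adjusted p = 0.0962).

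Basement membrane chains went both ways in MDA-MB-231. Of 6 members 4 were expressed, of which 2 rose and 2 fell, where 42.6% of all genes tested rose and 25.7% fell. The 2 that fell, COL4A5 and COL4A6, reached 1 FPKM only in wild type libraries and so had to be lower to be counted. COL4A5, at X, 108439844 to 108697545 (hg38), encodes a chain found in the basement membranes of kidney, skin and other epithelia. Wild type libraries held it at 26.1, 22.9, 27.6 and 25.3 FPKM, and knockout libraries at 0, 0.15, 0.0284 and 0 FPKM. Every wild type library was high and every knockout library was at or near 0, a log2 fold change of -4.66 (adjusted p = 2.17e-09). COL4A6, whose product joins that of COL4A5 in smooth muscle and epithelial basement membranes, is read in the opposite direction from X, 108155607 to 108439497. It stood at 2.26, 2.21, 2.25 and 1.72 FPKM in the wild type and at 0.0108 FPKM in 1 knockout library, with 0 listed in the other three. It fell by 1.63 on the log2 scale (adjusted p = 8.80e-07), a value that the added 1 holds down, since it was -4.42 with 0.1 added and -0.51 with 5 added. In the wild type the COL4A5 level was 12.2 ± 1.84 times that of COL4A6 on the FPKM scale.

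COL4A1 and COL4A2 encode the pair of chains that make up the most widespread type IV collagen. Both lie on chromosome 13, COL4A1 at 110148963 to 110307233 on the minus strand and COL4A2 at 110305812 to 110513209 on the plus strand (hg38), and the authors' table gives them a single shared locus. COL4A1 was at 9.0, 8.40, 8.13 and 8.61 FPKM in the wild type and 18.8, 23.3, 17.6 and 18.5 FPKM in the knockout. COL4A2 was at 50.8, 40.8, 46.4 and 49.3 FPKM in the wild type and 85.2, 73.3, 86.3 and 67.3 FPKM in the knockout. For both genes all knockout libraries were above all wild type libraries, with COL4A1 higher by 1.10 (adjusted p = 7.96e-06) and COL4A2 by 0.72 (adjusted p = 1.87e-04) on the log2 scale. When every library was centred on the tested genes within 10 Mb to either side, the COL4A1 change was 0.29 (adjusted p = 0.0216) and that of COL4A2 was -0.09 (adjusted p = 0.423). The FPKM ratio of COL4A1 to COL4A2 was 0.183 ± 0.0152 in the wild type and 0.254 ± 0.0519 in the knockout, with overlapping libraries. The annotated spans overlap at their starts, and reads in the overlap cannot be told apart if strand was not used in counting.

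All 3 expressed chains of type VI collagen, the beaded filament around many cells, fell in MDA-MB-231, where 25.7% of all genes tested fell. COL6A1 was measured at 60.3, 53.6, 59.0 and 56.9 FPKM in the wild type and 43.2, 43.2, 41.1 and 44.3 FPKM in the knockout. COL6A2, its neighbour on chromosome 21, was measured at 29.9, 27.1, 30.7 and 30.8 FPKM and then 12.7, 14.7, 16.1 and 13.6 FPKM. COL6A3, the longest chain, on chromosome 2, was measured at 2.66, 2.43, 2.93 and 2.66 FPKM and then 0.128, 0.0672, 0.108 and 0.127 FPKM. None of the 3 overlapped between groups, as held for 23.6% of all genes tested in the downward direction. The log2 fold change was -0.41 for COL6A1 (adjusted p = 1.07e-04), -1.01 for COL6A2 (6.59e-06) and -1.73 for COL6A3 (3.51e-07). COL6A3 reached 1 FPKM only in wild type libraries and so had to be lower in the knockout to be counted. Its change was -3.75 with 0.1 added and -0.59 with 5 added. COL6A1 and COL6A2 did not keep their proportion. The FPKM ratio of COL6A1 to COL6A2 was 1.94 ± 0.0748 in the wild type and 3.04 ± 0.375 in the knockout, without overlap.

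COL7A1 encodes the chain of the anchoring fibrils that tie epithelium to the tissue below. It stood at 96.1, 81.9, 90.4 and 84.3 FPKM in the wild type and 51.2, 43.6, 44.8 and 46.8 FPKM in the knockout. The groups were well apart and the log2 fold change was -0.91 (adjusted p = 4.43e-06). COL8A1, a short chain of the hexagonal networks of vessel walls and the corneal lining, went the other way. Its level was 14.3, 14.2, 16.9 and 14.5 FPKM in the wild type and 28.9, 32.0, 33.8 and 27.0 FPKM in the knockout. All knockout libraries were above the highest wild type library (0.98, adjusted p = 1.38e-05), and the change was 0.46 (adjusted p = 0.00200) after centring on the surrounding genes.

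Among the 10 fibril-associated members, 3 were expressed in MDA-MB-231 and 2 of those fell, where 25.7% of all genes tested fell. COL16A1, found at the border of cells and fibrils, stood at 15.0, 10.8, 21.1 and 11.0 FPKM in the wild type and 6.51, 2.59, 4.42 and 3.68 FPKM in the knockout. The spread inside each group was wide, yet the groups did not overlap (-1.55, adjusted p = 7.46e-04). COL9A2, a type IX chain that coats cartilage fibrils, fell from 8.12 ± 0.915 to 4.34 ± 0.711 FPKM (-0.78, adjusted p = 4.09e-04). COL12A1, a bridging chain of tendon and tumour matrix, was at 16, 18.1, 21.2 and 18.7 FPKM in the wild type and 14.7, 11.3, 18.5 and 9.90 FPKM in the knockout. Its groups overlapped through the third knockout library, and the log2 fold change of -0.45 missed the threshold (adjusted p = 0.0508). Without that library the value was -0.60 (adjusted p = 0.00696), and COL12A1 passed in 7 of 17 alternative settings.

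Of the 4 membrane-spanning members 2 were expressed in MDA-MB-231, and these moved in opposite directions. Over all genes tested 42.6% rose and 25.7% fell. COL13A1, at chromosome 10, 69801867 to 69964275 (hg38), had 35.0, 38.7, 35.9 and 34.0 FPKM in the wild type and 193, 201, 174 and 180 FPKM in the knockout. Its groups were far apart, and it rose by 2.35 ± 0.0606 on the log2 scale (SE, adjusted p = 7.87e-09). COL17A1, the hemidesmosome collagen that anchors keratinocytes, had 17.2, 19.4, 17.3 and 15.0 FPKM in the wild type and 3.09, 3.76, 2.24 and 2.90 FPKM in the knockout. No knockout library came near the wild type, and COL17A1 fell by 2.2 (adjusted p = 8.46e-07). COL18A1, a heparan sulfate bearing collagen of basement membranes whose end fragment is endostatin, had 60.4, 44.9, 50.4 and 43.2 FPKM in the wild type and 7.14, 6.80, 10.4 and 7.83 FPKM in the knockout. It too was lower in every knockout library, and fell by 2.49 (adjusted p = 7.63e-07).

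Summed over all 44 members, collagen came to 579 ± 27.8 FPKM in the MDA-MB-231 wild type and 475 ± 19.4 FPKM in the knockout (SD, n = 4). COL5A1 made up 24.5% ± 0.618 of that sum in the wild type and 2.04% ± 0.232 in the knockout. COL13A1 took 6.22% ± 0.561 and then 39.4% ± 2.11, and COL4A2 took 8.09% ± 0.612 and then 16.4% ± 1.53. By mean FPKM the wild type order began with COL5A1, COL7A1, COL6A1, COL18A1 and COL4A2, and the last 3 of these overlapped from each to the next. The knockout order began with COL13A1, COL4A2, COL7A1 and COL6A1, and the last 2 of these overlapped.

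**Figure D2:**
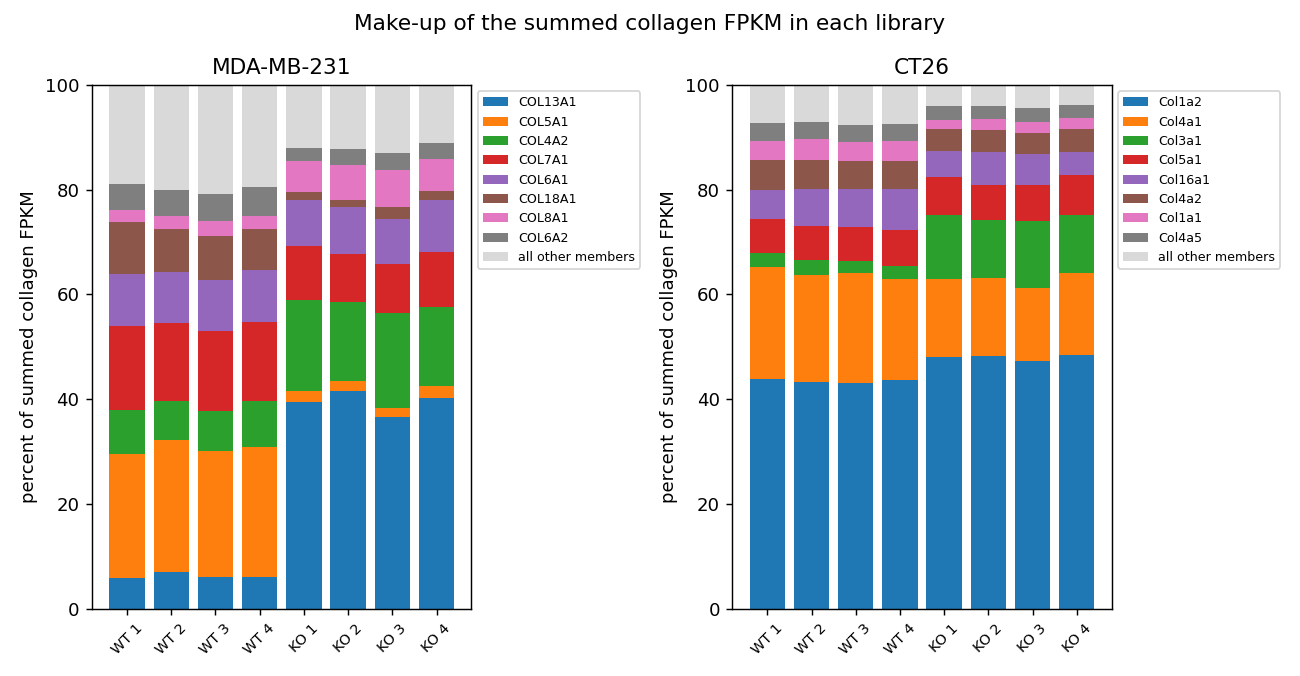
Share of the summed collagen FPKM, in percent on the vertical axis, held by the 8 members with the largest shares in each line, 1 bar per library with the other members in grey. In MDA-MB-231 COL5A1 shrinks from 24.5% to 2.04% and COL13A1 grows from 6.22% to 39.4% of the sum, and in CT26 Col1a2 stays the largest share at 43.4% and 48.0%.

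The other 25 members in MDA-MB-231 did not meet the expression rule, and 6 of them were listed at 0 in every library, among them COL2A1 and COL9A1, which encode cartilage collagens. Only 4 of the 25, COL3A1, COL5A2, COL9A3 and COL15A1, reached 0.5 FPKM in any library. COL5A2, the partner chain of COL5A1 in type V collagen, was at 0.115, 0.175, 0.235 and 0.108 FPKM in the wild type and 1.09, 1.80, 2.80 and 0.959 FPKM in the knockout. Its groups did not overlap, and in a fit with no filter on low values, where 35.4% of 31429 genes were called, it rose by 1.15 (adjusted p = 0.00305). COL3A1, its neighbour on chromosome 2 and the main fibrillar chain of elastic tissues, rose from a mean of 0.0438 to 0.401 FPKM in that fit (0.42, adjusted p = 0.00902). COL15A1, a relative of COL18A1, fell from 0.435 to 0.0820 FPKM (-0.41, adjusted p = 2.79e-04), and COL8A2, the partner of COL8A1, averaged 0.221 FPKM in the wild type and was listed at 0 in all 4 knockout libraries. COL9A3, a type IX chain, averaged 0.355 FPKM in the wild type and 0.797 FPKM in the knockout and was not called (adjusted p = 0.0969). COL4A3 and COL4A4, the remaining type IV chains, averaged no more than 0.136 FPKM in either group. In the fit with no filter 7 members were called higher and 15 lower. At these levels few reads stand behind a value, and the knockout libraries are the shallower ones.

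The authors' deposited table gave q-values below 0.05 for 17 of the 19 expressed members in MDA-MB-231, where it did so for 58.0% of the genes tested here. The exceptions in the authors' deposited table were COL4A5, with a q-value of 0.110, and COL4A6, with 0.303. COL12A1 had a q-value of 0.0340 in the authors' deposited table.

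In CT26 the largest change was a rise of Col3a1, the chain of type III collagen, to 502% of its wild type mean, and Col7a1 and Col18a1 had the largest falls. Of the 12 expressed members 3 rose and 8 fell (adjusted p below 0.05 over all 11342 genes tested, limma), where 22.3% of all genes tested rose and 33.5% fell, 55.8% together. By at least 1 on the log2 scale 1 member rose and 2 fell, beside 1.94% and 1.91% of all genes tested, 3.85% together. The groups did not overlap for the same 3 and 8 members, as held for 20.3% of all genes upward and 31.1% downward, 51.5% together. The median log2 fold change was -0.29 over the expressed members and -0.06 over all genes tested, with 0.03 over all genes after upper-quartile scaling. That scaling took the genes called from 2534 higher and 3794 lower to 3316 higher and 2840 lower. The 12 members all passed 1 FPKM in libraries of both groups.

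**Figure D3:**
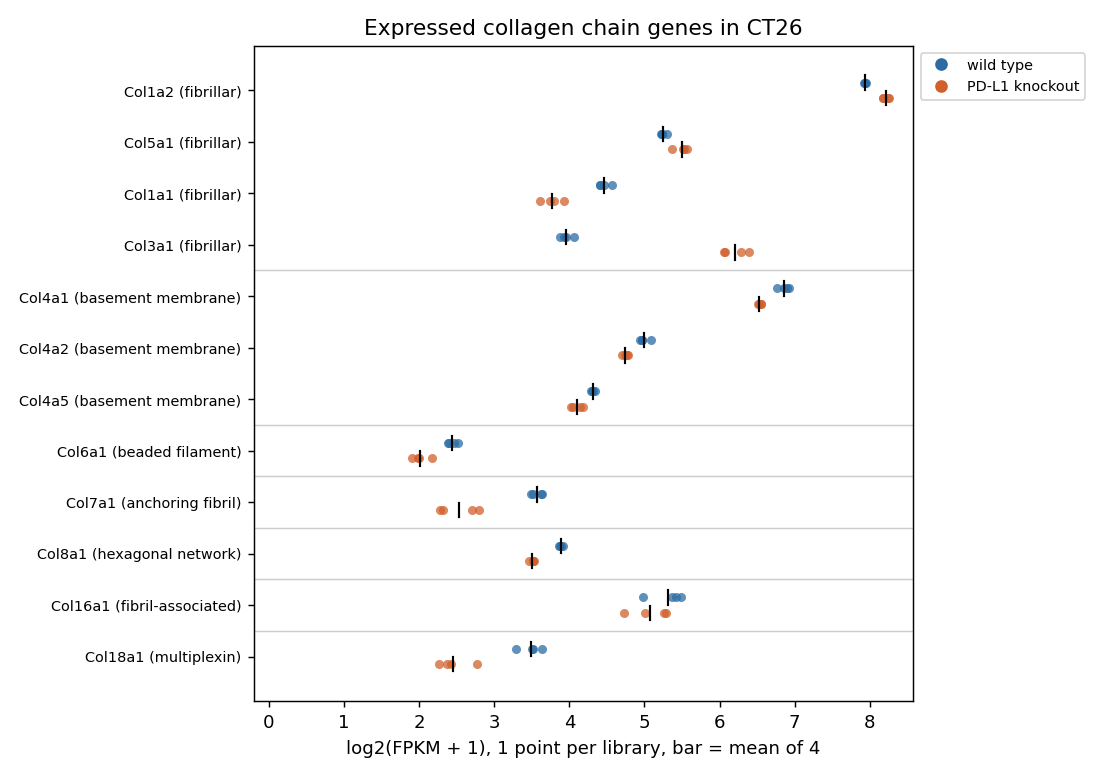
Level of each of the 12 expressed collagen chain genes in CT26, as log2(FPKM + 1) on the horizontal axis, with 1 point per library, a bar at the mean of 4, and members grouped by structural class. Col3a1 moves from 13.7 to 15.8 FPKM in the wild type up to 65.6 to 82.6 FPKM in the knockout, and the Col16a1 groups overlap.

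Of the 4 expressed fibrillar genes in CT26, 3 rose and 1 fell, where 22.3% of all genes tested rose and 33.5% fell. Col3a1, at chromosome 1, 45311538 to 45349706 (mm10, from the authors' table), stood at 14.5, 15.8, 13.7 and 14.2 FPKM in the wild type and 77.0, 65.6, 82.6 and 66.5 FPKM in the knockout. Every knockout library was far above every wild type library (2.25, adjusted p = 3.86e-07). Col1a2 stood at 246, 243, 243 and 244 FPKM and then 301, 288, 306 and 290 FPKM. The wild type values lay close together, and the small rise of 0.28 passed the test (adjusted p = 4.65e-05). Col5a1 was at 36.7, 36.6, 36.1 and 38.3 FPKM in the wild type and 45.2, 40.4, 44.6 and 46.6 FPKM in the knockout. Its groups were separate but close (0.25, adjusted p = 0.00220). Col1a1 moved against its partner, from 20.2, 22.8, 20.3 and 21.1 FPKM to 11.2, 12.9, 14.2 and 12.4 FPKM. Every knockout library lay below every wild type library (-0.70, adjusted p = 7.39e-05). The FPKM ratio of Col1a1 to Col1a2 was 0.0865 ± 0.0052 in the wild type and 0.0427 ± 0.00398 in the knockout, without overlap.

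The 3 expressed basement membrane genes of CT26 all fell by small amounts, where 33.5% of all genes tested fell. Col4a1 was at 121, 115, 118 and 108 FPKM in the wild type and 92.5, 89.9, 90.8 and 92.4 FPKM in the knockout (-0.33, adjusted p = 1.47e-04). Col4a2 was at 33.0, 30.1, 29.6 and 30.3 FPKM and then 25.8, 25.0, 26.4 and 26.2 FPKM (-0.24, adjusted p = 0.00146). Col4a5 was at 19.2, 18.6, 19.0 and 18.7 FPKM and then 17.1, 15.2, 16.6 and 15.6 FPKM (-0.22, adjusted p = 0.00397). In each of these genes all knockout libraries lay below all wild type libraries, as held for 31.1% of all genes tested. The FPKM ratio of Col4a1 to Col4a2 was 3.75 ± 0.198 in the wild type and 3.54 ± 0.071 in the knockout, with overlapping libraries.

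Col7a1, the anchoring fibril gene, was at 10.2, 11.4, 11.3 and 10.4 FPKM in the CT26 wild type and 5.51, 4.0, 5.97 and 3.87 FPKM in the knockout. Col18a1, the endostatin precursor, was at 10.3, 8.74, 11.4 and 10.4 FPKM and then 4.34, 3.81, 5.81 and 4.17 FPKM. Both were lower in all knockout libraries, with log2 fold changes of -1.04 (adjusted p = 1.65e-04) and -1.03 (adjusted p = 1.39e-04). Col8a1 was at 13.7, 13.6, 13.7 and 14 FPKM and then 10.5, 10.5, 10.4 and 9.99 FPKM in narrow groups that did not overlap, and it fell by 0.38 on the log2 scale (adjusted p = 6.03e-05). Col6a1 fell from 4.43 ± 0.232 to 3.05 ± 0.322 FPKM (-0.43, adjusted p = 0.00122). Col16a1 was at 30.6, 40.1, 41.7 and 43.6 FPKM in the wild type and 31.2, 37.2, 38.1 and 25.4 FPKM in the knockout. Its groups overlapped and it was not called (-0.24, adjusted p = 0.204).

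Summed collagen came to 562 ± 2.08 FPKM in the CT26 wild type and 617 ± 24.3 FPKM in the knockout. Col1a2 held 43.4% ± 0.338 and 48.0% ± 0.525 of it, Col4a1 20.5% ± 0.963 and 14.8% ± 0.608, and Col3a1 2.59% ± 0.162 and 11.8% ± 0.872. Of the 32 members that were not expressed, 6 were listed at 0 in every library and 3, Col9a3, Col11a2 and Col20a1, reached 0.5 FPKM in any. In the fit with no filter, where 26.4% of 23932 genes were called, Col5a3, a minor type V chain, fell from a mean of 0.210 to 0.000899 FPKM (-0.27, adjusted p = 5.22e-04). Col20a1, a fibril-associated chain, rose from 0.193 to 0.654 FPKM in that fit (0.46, adjusted p = 0.0353), although 1 knockout library lay below the highest wild type library. Col6a2, the partner of Col6a1, was also called in that fit, at means of 0.00742 and 0.0856 FPKM (0.11, adjusted p = 0.0437), with overlapping groups. Few reads stand behind values this low, and the authors' own test did not cover Col5a3 or Col6a2. The members expressed in MDA-MB-231 alone were near 0 in CT26, where no library held Col13a1 above 0.0477 FPKM or Col17a1 above 0.120 FPKM, and no transmembrane member was expressed. The authors' deposited table gave q-values below 0.05 for 9 of the 12 expressed members, where it did so for 45.5% of the genes tested here. The exceptions in the authors' deposited table were Col4a1 with a q-value of 0.135, Col4a2 with 0.0595 and Col16a1 with 0.434.

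The knockout response was compared directly between the lines for the 11 members expressed in both. Of these 9 differed, 3 with the more positive change in MDA-MB-231 and 6 with the more negative, where 50.1% and 22.0% of 8667 gene pairs did so, 72.2% together. COL4A5 and COL1A2, which are among the 6, reached 1 FPKM in MDA-MB-231 only in wild type libraries, so their change there had to be negative to be counted. COL4A1, COL4A2 and COL8A1 rose in MDA-MB-231 and fell in CT26, and their log2 fold changes differed by 1.43 (95% interval 1.22 to 1.64), 0.96 (0.73 to 1.2) and 1.35 (1.14 to 1.57). COL5A1 and COL1A2 fell in MDA-MB-231 and rose in CT26, with differences of -3.99 (-4.18 to -3.81) and -1.27 (-1.64 to -0.90). COL4A5, COL18A1 and COL1A1 fell in both lines and by more in MDA-MB-231, with differences of -4.45 (-4.66 to -4.23), -1.46 (-1.87 to -1.06) and -0.64 (-0.97 to -0.31). COL16A1 fell in MDA-MB-231 and was not called in CT26, and its difference of -1.31 was called (-1.96 to -0.66, adjusted p = 0.00111). COL7A1 and COL6A1 fell in both lines, with differences of 0.13 (-0.18 to 0.44, adjusted p = 0.430) and 0.02 (-0.18 to 0.21, adjusted p = 0.889), so a difference beyond those bounds was not seen on the deposited scale. After upper-quartile scaling the COL6A1 difference was -0.27 and was called (adjusted p = 0.0207).

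**Figure D4:**
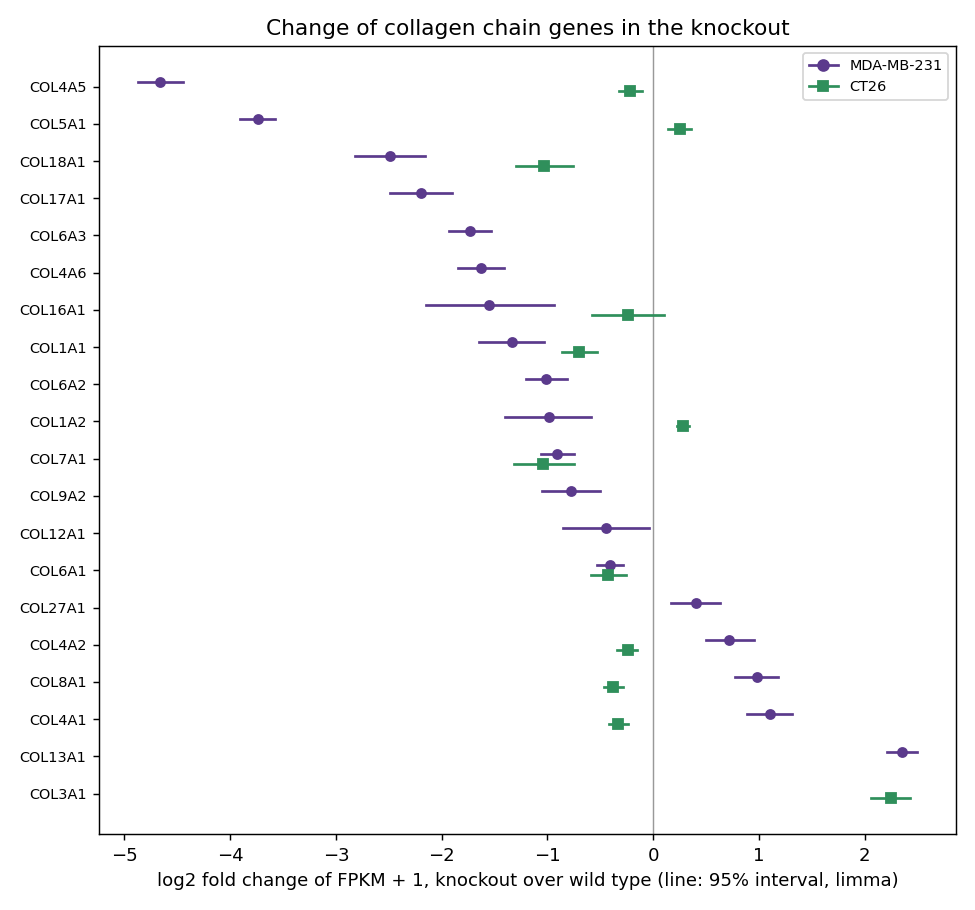
Log2 fold change of FPKM + 1, knockout over wild type, on the horizontal axis for each member expressed in MDA-MB-231 (circles) or CT26 (squares), with 95% intervals from limma as lines. COL5A1 lies at -3.74 in MDA-MB-231 and 0.25 in CT26, COL4A1 at 1.10 and -0.33, and COL7A1 at -0.91 and -1.04.

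Neighbouring genes were read beside the members, taking tested genes other than collagens within 1 Mb of a member's midpoint. Around COL4A1 and COL4A2, 7 of 8 such genes rose in MDA-MB-231 and 0 fell, with a median log2 fold change of 0.66. Around COL4A6, 4 of 5 neighbours fell with a median of -1.21, and around COL4A5, 4 of 6 fell with a median of -0.80. Around COL5A1, 3 of 10 rose and 2 fell with a median of 0.12, around COL13A1, 11 of 19 rose and 4 fell with a median of 0.40, and around COL18A1, 11 of 21 rose and 4 fell with a median of 0.33, where 42.6% of all genes tested rose and 25.7% fell. In CT26 only 3 genes near Col3a1 were tested, of which 1 rose and 1 fell, where 22.3% of all genes tested rose and 33.5% fell. The median of these 3 genes was 0.20 and their changes ranged from -0.68 to 2.78. The part of the neighbourhood in these changes was not tested.

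**Figure D5:**
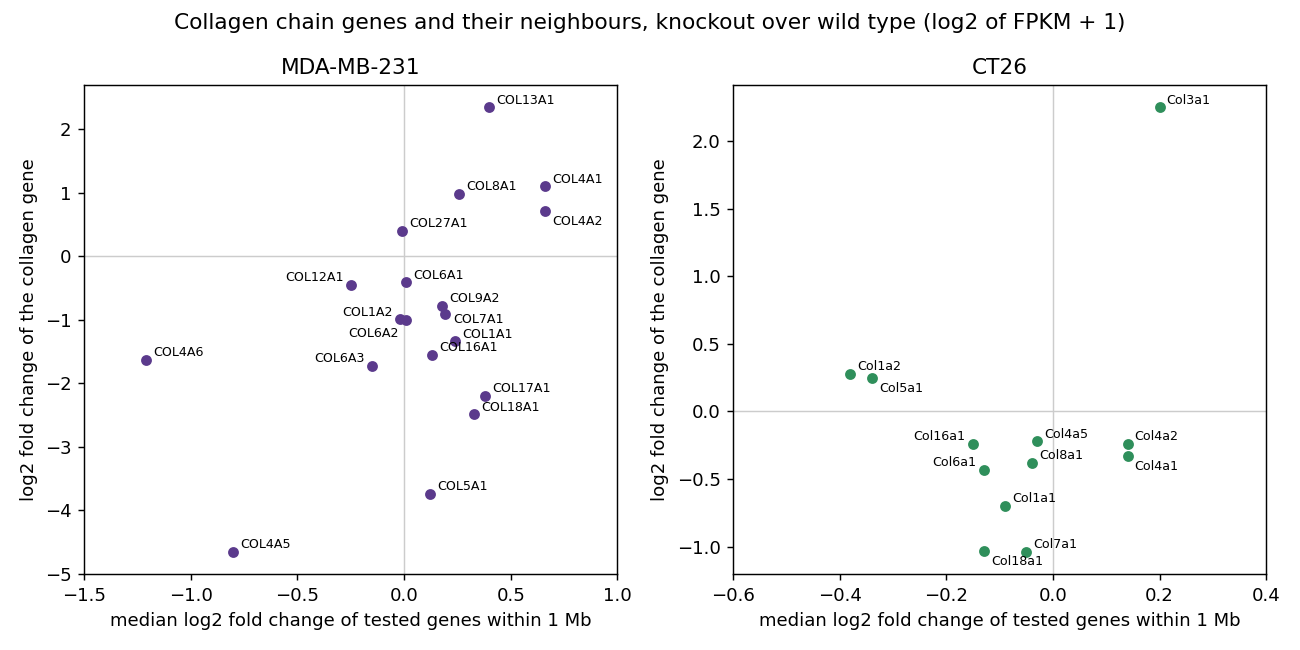
Log2 fold change of each expressed member (vertical axis) against the median log2 fold change of the other tested genes within 1 Mb (horizontal axis), in MDA-MB-231 on the left and CT26 on the right, 1 point per member. COL4A1 and COL4A2 sit at a neighbour median of 0.66, COL4A5 and COL4A6 at -0.80 and -1.21, and COL5A1 and COL13A1 at 0.12 and 0.40.

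Genes that modify, carry, trim, crosslink, bind and degrade collagen were read from 8 lists. In MDA-MB-231 16 of the 57 tested, 28.1%, rose and 31, 54.4%, fell, where 42.6% of all genes tested rose and 25.7% fell. Of the 57, FKBP10 and ITGA10 reached 1 FPKM only in knockout libraries and LOXL4 and ADAMTS14 only in wild type libraries, so the filter fixed the direction in which these 4 could be counted. Of 14 tested hydroxylation and glycosylation genes 4 rose and 7 fell (median log2 fold change -0.24, against 0.18 over all genes). P4HA2, a catalytic subunit of prolyl hydroxylase, fell from 74.7 ± 1.01 to 5.93 ± 0.635 FPKM (-3.45, adjusted p = 2.51e-09), P4HA1 fell by 1.34, their partner subunit P4HB by 1.30 and the lysyl hydroxylase PLOD1 by 1.46. Of 9 chaperone and secretion genes 4 rose and 3 fell (median 0.09). FKBP10, a collagen chaperone, rose from 0.636 ± 0.296 to 116 ± 6.09 FPKM (6.18, adjusted p = 2.43e-09), and SERPINH1, the collagen-specific chaperone HSP47, fell from 154 ± 0.877 to 86.1 ± 4.07 FPKM (-0.83, adjusted p = 3.76e-07). Of 4 propeptide processing genes 2 fell, ADAMTS14 and BMP1 (median -1.03), with BMP1, the C-proteinase, from 31.0 ± 1.93 to 3.07 ± 0.397 FPKM (-2.98, adjusted p = 2.01e-08). Of 5 lysyl oxidase genes, which crosslink collagen, 2 rose and 3 fell (median -0.80). LOXL4 fell from 112 ± 1.88 to 0.667 ± 0.145 FPKM (-6.09, adjusted p = 1.94e-10), LOX from 44.3 to 6.03 FPKM (-2.69), and LOXL1 rose from 17.1 to 36.7 FPKM (1.06).

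Against the same shares of 42.6% higher and 25.7% lower over all genes, 5 of 6 collagen receptors tested in MDA-MB-231 fell and 1 rose (median -0.74). The integrin subunit ITGA2 fell by 1.77 and the discoidin domain receptor DDR1 by 1.86, while ITGA10, the receptor that had to be higher to be tested, rose from 0.321 to 2.47 FPKM (1.37). Of 4 degradation genes 3 fell (median -1.03), and MMP14, a membrane-bound collagenase, fell from 147 ± 8.69 to 55.0 ± 3.14 FPKM (-1.41, adjusted p = 1.34e-07). Of 3 matrix partners 2 fell and 1 rose (median -0.78), with HSPG2, the perlecan gene, down from 37.2 to 12.5 FPKM and fibronectin, FN1, from 199 to 116 FPKM. Of 12 genes of TGF-beta signalling, a pathway that induces fibrillar collagen, 4 rose and 6 fell (median -0.38). CTGF rose from 34.4 ± 1.26 to 312 ± 15.4 FPKM (3.14, adjusted p = 5.58e-10), TGFBR2 by 0.75 and SMAD4 by 0.93, and SMAD3 fell by 0.86.

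Over the same lists of collagen pathway genes in CT26, 9 of 45 tested genes, 20%, rose and 26, 57.8%, fell, where 22.3% of all genes tested rose and 33.5% fell. After upper-quartile scaling 12 rose and 19 fell. Of 12 hydroxylation and glycosylation genes 3 rose and 6 fell (median -0.15, against -0.06 over all genes), with Plod2 up from 5.53 to 9.99 FPKM (0.75) and Plod3 down from 204 to 145 FPKM (-0.49). Of 7 chaperone and secretion genes 1 rose and 4 fell (median -0.23), and Serpinh1 fell from 399 to 330 FPKM (-0.28). Of 3 propeptide processing genes 1 rose and 2 fell (median -0.40), and Pcolce, an enhancer of the C-proteinase, fell from 1080 to 762 FPKM (-0.51). Of 2 lysyl oxidase genes 1 fell (median -0.51), namely Loxl4 from 45 ± 1.56 to 19.3 ± 0.289 FPKM (-1.18, adjusted p = 1.73e-07). Of 4 receptors 2 rose and 2 fell (median 0.00), with Mrc2, an endocytic collagen receptor, up from 0.926 to 4.84 FPKM (1.60) and Ddr2 down from 48.8 to 29.1 FPKM (-0.72). The single degradation gene tested, Mmp14, rose from 55.5 to 73.4 FPKM (0.40). Of 5 matrix partners 4 fell (median -0.24). Of 11 genes of TGF-beta signalling 1 rose and 7 fell (median -0.34), with Ctgf up from 39.5 to 66.0 FPKM (0.73) and Smad2 down from 53.6 to 23.5 FPKM (-1.16).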

How the data were processed

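Per the submitters' processing notes, bcl2fastq 2.18, STAR 2.5.4a, Cufflinks 2.2.1 and Cuffdiff were used with builds hg38 and mm10. Annotation release, use of strand and Cuffdiff settings: not given in the sources used here. Deposited by the authors were FPKM per gene and library in 1 table per line, together with p-values and q-values of their own test. The tables were normalized apart, so levels were not compared between lines. Values were analysed as log2(FPKM + 1). Genes with at least 1 FPKM in at least 4 of 8 libraries were tested, knockout against wild type, in two-sided limma-trend fits (limma 3.58.1, R 4.3.3) whose only term was the group. P-values were adjusted by Benjamini-Hochberg across the tested genes of a line, and 0.05 was the threshold. Responses of the lines were compared in 1 limma fit of 8667 gene pairs matched by symbol. Fits were also run on simulated data with independent noise and far fewer changed genes than were called here. That run does not show how the fits do under changes as broad as these. Depth was read from the steps between low FPKM values and is relative, so no counting interval can be given, and shallower libraries are less certain at low FPKM.

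The members and lists were chosen with earlier results of these data known. Every member may be named. Those called with a log2 fold change of at least 1 in size, or averaging 10 FPKM or more in a group, have every library printed. Of each pathway or marker list, at most the 4 tested members with the smallest adjusted p per line are named as changed, and other markers are given only as levels. Alternatives covered the pseudocount, the filter, the scaling, the replicate number as a block, the trend and leaving out each library. Centring on the surrounding 20 Mb was added after seeing the data. Gene spans in MDA-MB-231 are from GENCODE 29 and lay inside the deposited locus for all 44 members. Motifs were searched in the 250 bases before each RefSeq start. Where counting ignored strand, genes that overlap share reads. Summaries and plots used pandas 2.3.3, numpy 2.4.6 and matplotlib 3.10.9 in Python 3.11.15.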

Additional observations from a re-analysis of the deposited data

Results flagged for a closer look

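The knockout response differed between the lines, by the test of the difference itself, for 9 of the 11 members expressed in both. Of all 8667 gene pairs 72.2% differed. COL4A5 and COL1A2 reached 1 FPKM in MDA-MB-231 only in wild type libraries, so their change there had to be negative to be counted. The difference in log2 fold change, MDA-MB-231 minus CT26, was 1.43 for COL4A1, 1.35 for COL8A1 and 0.96 for COL4A2. It was -0.64 for COL1A1, -1.27 for COL1A2, -1.31 for COL16A1, -1.46 for COL18A1, -3.99 for COL5A1 and -4.45 for COL4A5. The lines differ in species, tissue and the edited cells at once, and these cannot be told apart.

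In 4 of 62 groups of 4 libraries, 1 library stood apart, with its gap to the nearest other over the group's range past Dixon's critical value. For normally distributed values chance alone gives about 1 in 20 such groups. In the MDA-MB-231 wild type the groups were COL8A1 (0.868, the third library at 16.9 FPKM) and COL4A6 (0.903, the fourth library at 1.72 FPKM). In the knockouts they were COL4A6 in MDA-MB-231 (1.0, the first library at 0.0108 FPKM and the others at 0) and Col8a1 in CT26 (0.839, the fourth library at 9.99 FPKM). With all other libraries at 0, the COL4A6 knockout value is 1.0 by construction. The rate of 1 in 20 does not apply to that group.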

How the results depend on the processing

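Without the filter on low values, 5 members were called higher in CT26, against 3. Over all genes 2699 of 23932 were called higher in that fit, against 2534 of 11342. The members added were Col20a1 and Col6a2, both with overlapping groups. The log2 fold change of COL4A2 in MDA-MB-231 was -0.09 after window centring, against 0.72, and the COL6A1 difference between lines was -0.27 after upper-quartile scaling, against 0.02; the cause was not tested. Centring on 20 Mb windows, added after seeing the data, left 2528 genes called lower in CT26, against 3794, and split the genes called into 4560 higher and 4523 lower in MDA-MB-231 and 2546 higher and 2528 lower in CT26. Called members kept their direction and call in the other alternatives that tested them, except COL27A1 under upper-quartile scaling. Values near 0 depend on the added constant: with 0.1 and 5 the COL4A5 change was -7.57 and -2.59, that of COL6A3 -3.75 and -0.59 and that of COL1A2 -1.80 and -0.35.

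In MDA-MB-231 same-numbered libraries correlated at -0.0365 to 0.00442, and none correlated best with its own number. In CT26 same-numbered libraries correlated weakly, at 0.0273 to 0.0779, yet each correlated best with its own number. Whether the CT26 numbers pair the libraries was not settled. With the replicate block, 5 members were higher and 14 lower in MDA-MB-231 (COL12A1 adjusted p = 0.0388) and 3 higher and 8 lower in CT26, and the genes called were 6026 higher and 3622 lower in MDA-MB-231 and 2391 higher and 3641 lower in CT26.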
